A study of Mus musculus with 2 samples.

Results

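The genes described here are those of antigen presentation by MHC class II in the mouse, namely Cd74, H2-Aa, H2-Ab1, H2-Eb1, H2-DMa, H2-DMb1, H2-DMb2, H2-Oa and Ciita. They were chosen by name, and all 9 were found among the 33696 genes of the tables. The samples are single-cell suspensions from solid ID8 tumours, ID8 being an ovarian cancer line of C57BL/6 mouse origin. One group is chemoresistant tumours of mice given cisplatin, a DNA-damaging platinum compound, and the other is primary tumours without treatment. Each group is 1 droplet library (3' v3 chemistry) made from pooled tumours, with no animal told apart from another, so nothing below has a replicate check and no p-value is given. Dose, time after treatment, age and sex of the mice are not stated in the sources. Intervals in parentheses are exact 95% intervals and cover counting error only.

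MHC class II molecules are pairs of an alpha and a beta chain that display peptides to CD4 T cells. Cd74, the invariant chain, guards the peptide groove during transport, H2-DM removes its last fragment and loads peptides, and H2-O restrains H2-DM. Ciita is a co-activator that binds no DNA itself and is recruited to class II promoters by factors on the X and Y boxes. B cells, dendritic cells and macrophages make class II constitutively or on activation, whereas mouse T cells and neutrophils normally do not, and in many epithelial and tumour cells interferon gamma switches Ciita on. C57BL/6 mice lack a working alpha chain of the E molecule, so the H2-Eb1 chain has no usual partner. H2-Ea had 0 counts in the tumour class of both libraries.

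Ciita is on chromosome 16 (10480059 to 10528418, plus strand). The members other than Ciita and Cd74 lie close together on chromosome 17 (GRCm38, GENCODE vM21). In order of position, these are H2-Oa (34092340 to 34095234), H2-DMa (34119541 to 34139101), H2-DMb2 (34143307 to 34151555), H2-DMb1 (34153072 to 34160230), H2-Ab1 (34257689 to 34269419), H2-Aa (34282744 to 34287823) and H2-Eb1 (34305867 to 34316674). H2-Aa is on the minus strand and the others are on the plus strand. H2-Eb1, H2-DMa, H2-Oa and Ciita overlap genes of the opposite strand (Gm20513, Brd2, BC051537 and Dexi among them), and the sources name no strand setting for the counting, so reads of such pairs could be shared. H2-DMb1 and H2-DMb2 are related genes, with 71.8% identity over their whole transcripts and 65.2% over the last 300 bases. The longest identical run is 221 bases over the whole transcripts and 23 bases over the last 300. Some of their reads could therefore be uncertain.

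The X and Y boxes are shown because Ciita, 1 of the members, acts on the others through them. RefSeq promoter windows (GRCm38.p6, 250 bases before to 50 after the gene start) were at hand for 6 of the 9 members. In 5 of these 6 a core of the X box, written GCAAC or AACNGATG, was followed by the Y box GATTGG 15 to 35 bases later, a pair that 126 of 32851 windows (0.384%) held on either strand. The motifs were written down after the sequences had been seen, and an AACNGATG match can overlap a GCAAC match, as in H2-Eb1. GATTGG alone was in 16.1% of windows. The pairs follow, 5′ to 3′ on the strand of the gene, with both boxes in capitals.
H2-Aa, chr17:34287861-34287910, minus strand: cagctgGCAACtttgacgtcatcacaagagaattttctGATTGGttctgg
H2-Eb1, chr17:34305770-34305818, plus strand: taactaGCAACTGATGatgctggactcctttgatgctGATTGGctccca
H2-DMb1, chr17:34153093-34153140, plus strand: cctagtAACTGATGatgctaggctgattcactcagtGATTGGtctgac
H2-DMb2, chr17:34145122-34145169, plus strand: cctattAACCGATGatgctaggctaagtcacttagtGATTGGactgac
H2-Oa, chr17:34092297-34092346, plus strand: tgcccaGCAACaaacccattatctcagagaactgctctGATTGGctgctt
The Y box began 27 bases after GCAAC in H2-Aa and in H2-Oa, and 22 bases after AACNGATG in H2-DMb1 and in H2-DMb2. AACNGATG runs on past the AAC that both cores share, so these numbers are counted from different points. Counted from that AAC, the spacing is the same in these genes. In H2-Eb1, which matches both cores, the Y box began 26 bases after GCAAC and 21 after AACNGATG. The 2 windows of H2-DMa held no such pair, which says only that these letters are not in them.

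The chemoresistant library gave 13130 cells at a median of 4142.5 UMIs (unique molecular identifiers, the unit of counting), and the primary library 11508 cells at 5419 UMIs. Cells were put into classes by counts of marker genes that include no member. The tumour class had 2984 chemoresistant cells (22.7%, median 20719 UMIs) and 778 primary cells (6.76%, median 34404 UMIs). Its cells carried a median of 7 of the 15 epithelial markers in both libraries, 5 (chemoresistant) and 4 (primary) of the 9 mesothelial ones, and 0 of the T-cell list. Of the other leukocyte lists they carried medians of 2 and 2 migratory dendritic, 1 and 2 cDC1, 1 and 1 macrophage, 1 and 1 monocyte and 0 and 1 B-cell markers. The epithelial and mesothelial lists were joined in 1 class, so that tumour cells and host mesothelium are not parted in it. The classes set beside it were T cells (216 chemoresistant and 879 primary cells, medians 1772.5 and 4852 UMIs), neutrophils (636 and 1355 cells, 902 and 2413 UMIs), B cells (2553 and 2995), mononuclear phagocytes (3758 and 2776), dendritic cells (582 and 696) and fibroblasts (284 and 229). Chemoresistant fibroblasts lay mostly in cluster 14 (275 cells), led by Spp1 and Tnfrsf9, and primary ones in cluster 15 (225 cells), led by Svep1 and Sntg1. Of the fibroblasts, 117 chemoresistant and 35 primary cells lay within 2 times the score of the next class. The libraries shared 52 cell barcodes, 48 of them among barcodes past the filters.

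Tumour-class cells carried transcripts of Cd74, the 3 classical chains and H2-DMb1 above those of T cells, both in UMIs per cell and in CPM. Cd74 and the classical chains were below those of professional antigen-presenting cells in CPM. Per cell, where the depth of the classes enters, the order of Cd74 was another. Chemoresistant tumour-class cells held 45.3 Cd74 UMIs per cell, against 55.3 in dendritic cells, 31.3 in mononuclear phagocytes and 11.4 in B cells. In the primary library the values were 41.8, 136.4, 65.7 and 41.2 in the same order of classes. Levels are given as CPM, the summed UMIs of a gene scaled to a class total of 1e6 UMIs, and are compared between classes, never between genes. Cd74 stood at 1764 CPM (1754 to 1773) in chemoresistant and 1057 CPM (1046 to 1069) in primary tumour-class cells. T cells had 628 CPM (chemoresistant) and 214 CPM (primary), and neutrophils 469.5 and 433 CPM. Dendritic cells were highest, at 10866 and 14679.6 CPM, before B cells (6396 and 7488 CPM) and mononuclear phagocytes (4850.3 and 5646 CPM). In the chemoresistant library the order of Cd74 was dendritic, B, mononuclear phagocyte, tumour, T, neutrophil and fibroblast, with no overlap of neighbouring intervals. In the primary library the tumour class came below 71 acinar-like, 124 plasma-like and 116 enterocyte-like cells, classes with under 50 cells in the chemoresistant library, and above neutrophils, endothelial cells, fibroblasts and T cells. The acinar-like cells were not a pure class.

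**Figure D1:**
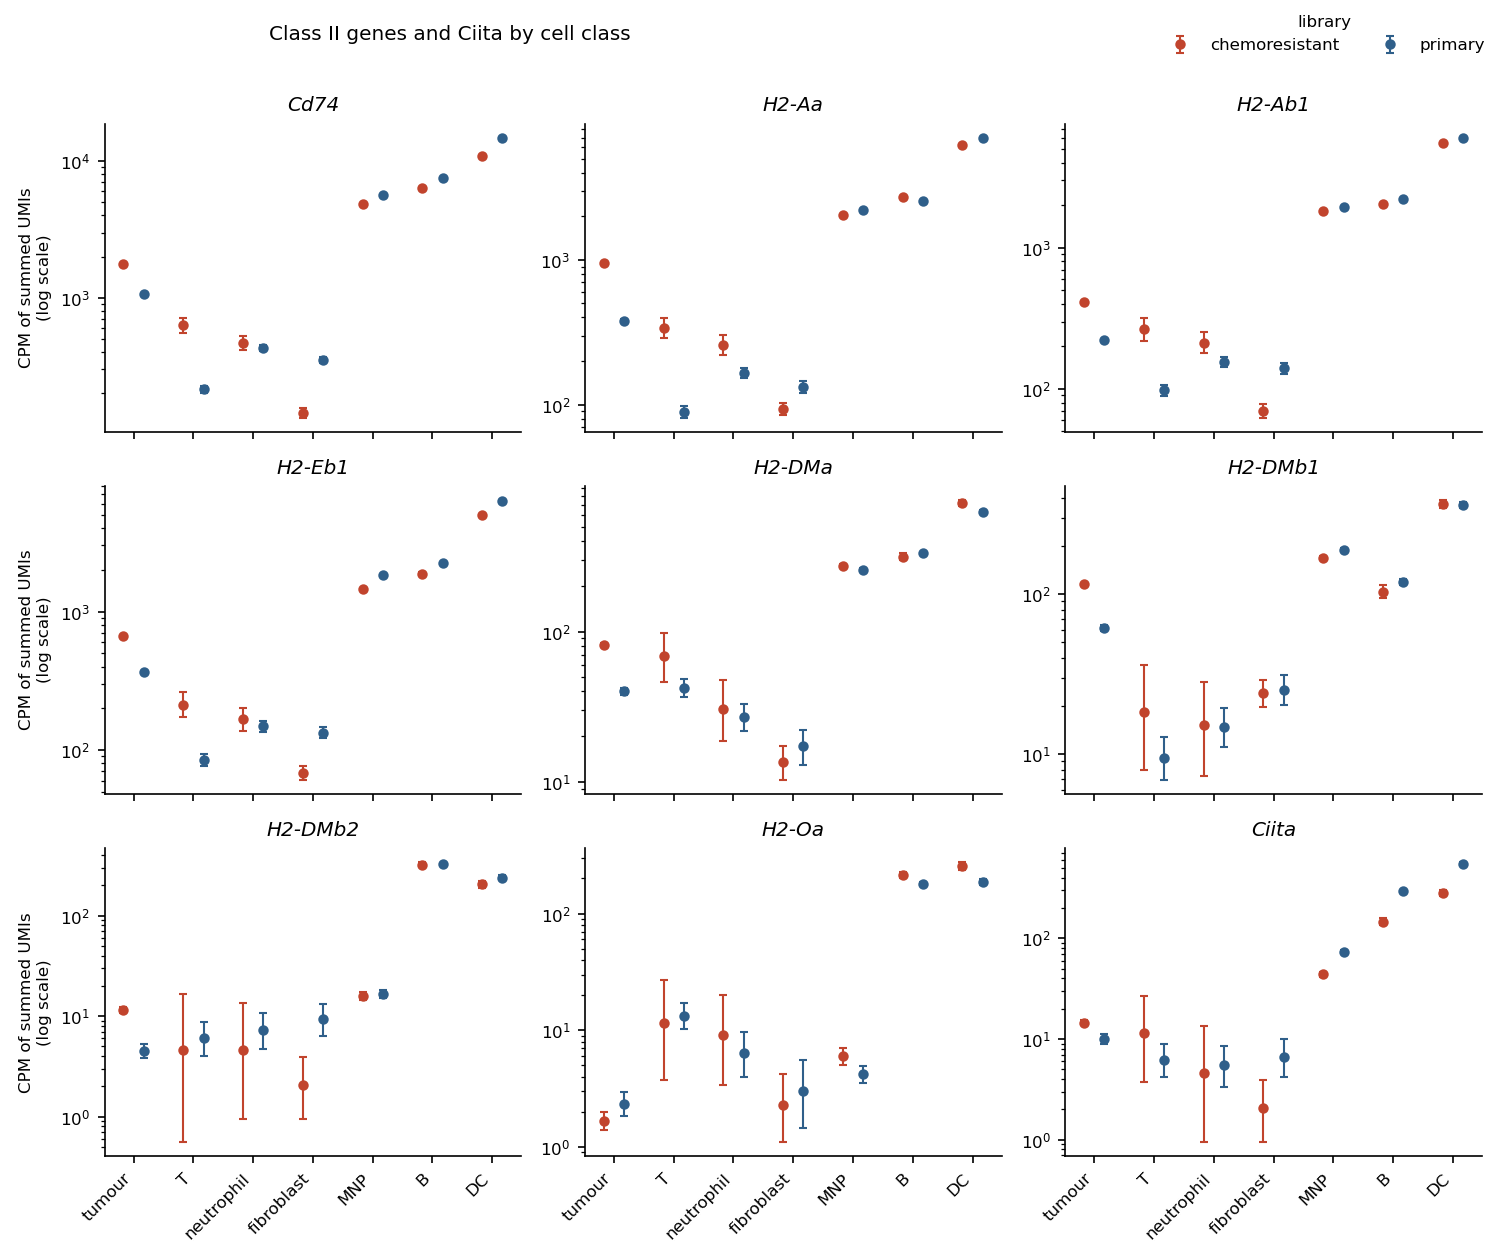
CPM (log axis) of each gene in 7 classes (MNP, mononuclear phagocytes; DC, dendritic cells), chemoresistant in red left of primary in blue, with exact 95% counting intervals. The tumour class lies below MNP, B and DC for Cd74 and the classical chains, and it is the lowest of the 7 classes for H2-Oa, with intervals that overlap those of fibroblasts.

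Among the classical chains, H2-Aa (the alpha chain of the A molecule) had 946 CPM (939 to 953) in chemoresistant and 380.4 CPM (374 to 387) in primary tumour-class cells. T cells had 339 and 89.3 CPM and neutrophils 258 and 165 CPM of H2-Aa. Its partner H2-Ab1 had 416 and 221 CPM in the tumour class, against 264 and 97.5 CPM in T cells and 213 and 155 CPM in neutrophils. H2-Eb1, the beta chain of the E molecule, had 662 and 368 CPM in the tumour class, against 213 and 85.3 CPM in T cells and 168 and 148 CPM in neutrophils. For each of the 3 chains the tumour class was above both T cells and neutrophils in both libraries, with intervals that did not overlap.

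The peptide-loading chains went the same way only in part. H2-DMb1, a beta chain of the peptide loader, had 115 CPM (chemoresistant) and 61.5 CPM (primary) in the tumour class, against 18.3 and 9.47 CPM in T cells, and in the chemoresistant library its tumour level overlapped that of B cells (104 CPM). H2-DMa, the alpha chain, had 81.3 and 39.99 CPM in the tumour class, and these overlapped the 68.8 and 42.2 CPM of T cells. The second beta chain, H2-DMb2, had 11.5 and 4.52 CPM in the tumour class, against 321 and 326 CPM in B cells and 15.9 and 16.6 CPM in mononuclear phagocytes. Among the 7 classes the inhibitor chain H2-Oa was at its lowest in the tumour class, at 1.68 and 2.34 CPM, overlapping fibroblasts (2.28 and 3.01 CPM), against 215 and 179 CPM in B cells and 256 and 188 CPM in dendritic cells.

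Ciita, the co-activator of the whole group, had 14.5 CPM (13.6 to 15.3) in chemoresistant and 9.92 CPM (8.83 to 11.1) in primary tumour-class cells. These were 0.372 and 0.392 UMIs per cell. T cells had 11.5 and 6.24 CPM, mononuclear phagocytes 44.0 and 72.9 CPM, B cells 147 and 296 CPM, and dendritic cells 280 and 551 CPM. In CPM, the tumour and T-cell intervals of Ciita overlapped in both libraries. This rests in part on 1 chemoresistant T cell, which held all 5 Ciita counts of its class. Without the T cell highest in Cd74, a step added after seeing the data, the chemoresistant T class held 0 Ciita counts. The ratio of tumour over T cells in CPM then had a lower bound of 1.66, and in the primary library the same step gave 1.64 (1.11 to 2.51). Per cell, tumour-class cells held 16.1 (6.86 to 49.5) and 11.9 times as many Ciita UMIs as T cells.

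Free RNA in the droplets can give class II counts in cells that do not make class II, so the tumour class was set against T cells and neutrophils and against 10 tracer genes of other cells (Igkc, Ighm, Cd79b and Iglc2 of the B lineage, C1qa, C1qb, C1qc and Lyz2 of macrophages, S100a8 and S100a9 of neutrophils). Tumour-class cells held 45.3 (chemoresistant) and 41.8 (primary) Cd74 UMIs per cell, against 1.27 and 1.13 in T cells and 0.483 and 1.10 in neutrophils. The ratio of tumour over T cells was 35.7 (31.7 to 40.4) and 36.9 (34.6 to 39.3). For the tracers the same ratio ran over a range of 0.776 to 19.7 (median 6.05) and 1.62 to 7.41 (median 5.10). Against neutrophils, Cd74 gave 93.9 (83.9 to 105) and 38.0 (36.0 to 40.0), and the 8 tracers that are not neutrophil genes gave 1.73 to 9.09 and 2.65 to 9.29. In CPM, which corrects for the larger libraries of tumour cells, Cd74 was 2.81 and 4.93 times the T-cell level, where the tracers were 0.061 to 1.55 and 0.217 to 0.991 times it.

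The chemoresistant T class rests on 1 cell for this comparison. That cell, with 11294 UMIs, held 154 of the 274 Cd74 UMIs of the class, 79 of its 148 H2-Aa UMIs and all 5 of its Ciita UMIs. Without it, T cells held 0.558 Cd74 UMIs per cell (282 CPM), and the ratio of tumour over T cells became 81.2 (67.9 to 97.9) per cell and 6.24 (5.22 to 7.53) in CPM. The same step in the primary library, where the highest T cell held 30 Cd74 UMIs, gave 38.0 per cell and 5.08 in CPM. With the barcodes marked as doublets kept, the ratio per cell was 21.9 and 18.9.

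Nearly all tumour-class cells had at least 1 UMI of a gene on the leukocyte marker lists. Not every listed gene is limited to leukocytes in these data. Zmynd15 of the migratory dendritic list, for one, was among the leading genes of tumour cluster 11. Such a UMI therefore does not by itself mark leukocyte RNA. Of the class, 63 chemoresistant and 17 primary cells had no UMI of any leukocyte marker on the lists. The 63 were shallow, at a median of 1518 UMIs, and held 56 Cd74 UMIs, 0.701 times (0.516 to 0.937) the T-cell level per cell and 0.667 times it in CPM (419 against 628 CPM). This direction too rests on the 1 T cell, for without it the 63 cells held 1.59 times (1.14 to 2.20) the T-cell level per cell and 1.48 times it in CPM (419 against 282 CPM). In the 2026 chemoresistant and 297 primary tumour-class cells with no UMI of Ptprc, Csf1r, Cd79a, Flt3, Cd3e and Csf3r, Cd74 per cell was 29.2 and 24.7 times the T-cell level.

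The other members differed in how far they stood above the tracers. The 3 classical chains and H2-DMb1 were above the highest tracer against both T cells and neutrophils in both libraries, and H2-Oa was within the tracers' range each time. Tumour over T cells in UMIs per cell, chemoresistant and primary, was 35.5 and 31.9 for H2-Aa, 20.1 and 16.96 for H2-Ab1, 39.5 and 32.2 for H2-Eb1 and 80.1 and 48.5 for H2-DMb1. Over neutrophils the same members ran from 48.9 (H2-Ab1) to 189 (H2-DMb1) and from 22.2 to 64.5. For H2-Oa the ratio was 1.87 and 1.31 over T cells and 4.58 and 5.70 over neutrophils.

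For the remaining members the place depended on the library or on the class set against. H2-DMa was within the tracers' range over T cells (15.03 and 7.09) and above it over neutrophils (66.4 and 23.0). Ciita was within it over chemoresistant T cells (16.1) and above it over primary ones (11.9), and it was above it over neutrophils (78.8, on 3 neutrophil counts, and 28.0). H2-DMb2 was within it over primary T cells (5.61) and above it over chemoresistant ones, on 2 T-cell counts (31.9, 8.80 to 264). Over neutrophils H2-DMb2 gave 62.6 on 3 counts and, in the primary library, 9.68 (6.29 to 15.5), where the highest tracer was 9.29. Fibroblasts gave smaller ratios, 20.4 and 8.22 for Cd74, where the tracers reached 2.27 and 2.63.

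After thinning every cell to 1000 UMIs, which takes the depth of the classes out, Cd74 was found in 57.3% (55.4 to 59.1) of chemoresistant and 48.1% (44.5 to 51.7) of primary tumour-class cells. The share was 18.2% (12.9 to 24.5) and 18.8% (16.2 to 21.5) in T cells, and 25.9% and 31.9% in neutrophils. Cells under 1000 UMIs were left out, 59 and 7 of the tumour class, 29 and 6 of the T class and 393 and 65 of the neutrophils. Unthinned, 89.9% and 96.0% of tumour-class cells had a Cd74 UMI. For the macrophage tracer Lyz2 the order was the other way, with 12.8% and 15.6% of tumour-class cells, against 23.5% and 22.0% of T cells. H2-Aa was found in 44.3% and 27.0% of thinned tumour-class cells, against 17.6% and 10.1% of T cells. Ciita was found in 1.03% (0.693 to 1.46) and 1.30% (0.624 to 2.37) of them, against 0 of 187 chemoresistant T cells, with an exact upper bound of 1.95%, and 0.687% of primary ones, so that at this depth a difference in Ciita was not detectable.

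Tumour-class cells with Cd74 more often had a classical chain than those without it. Among thinned tumour-class cells with Cd74, 81.3% (79.3 to 83.1; chemoresistant) and 65.0% (59.9 to 69.8; primary) also had at least 1 UMI of H2-Aa, H2-Ab1 or H2-Eb1. Among those without Cd74 the shares were 31.4% and 29.3%, which makes differences of 49.9 and 35.7 percentage points. In T cells the shares were 44.1% (27.2 to 62.1) with Cd74 and 30.7% without it in the chemoresistant library, and 30.5% and 23.7% in the primary library. Neutrophils gave 39.7% and 32.8% in the chemoresistant and 37.4% and 33.3% in the primary library. Fibroblasts gave 36.7% (19.9 to 56.1) and 18.5% in the chemoresistant library. In the primary library fibroblasts gave 56.0% (41.3 to 70.0) and 20.6%, a gap about as wide as that of the primary tumour class, on 50 cells with Cd74, and 73 endothelial cells gave 47.4% and 18.5%. Mononuclear phagocytes gave 90.3% and 39.5%, and 85.7% and 35.3%.

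Cd74 was spread unevenly over the tumour class. The median cell had 17 (chemoresistant) and 15 (primary) Cd74 UMIs, the 90th percentile 130 and 114, and the highest cell 425 and 509. Cells with none made up 10.1% and 3.98%, where counts at 1 even rate would leave 0.827% and 1.12%. The top 10% of cells held 42.2% and 47.3% of the Cd74 UMIs. Cells with at least 10 Cd74 UMIs numbered 1715 and 468 in the tumour class, against 3 and 6 T cells and 1 and 5 neutrophils.

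**Figure D2:**
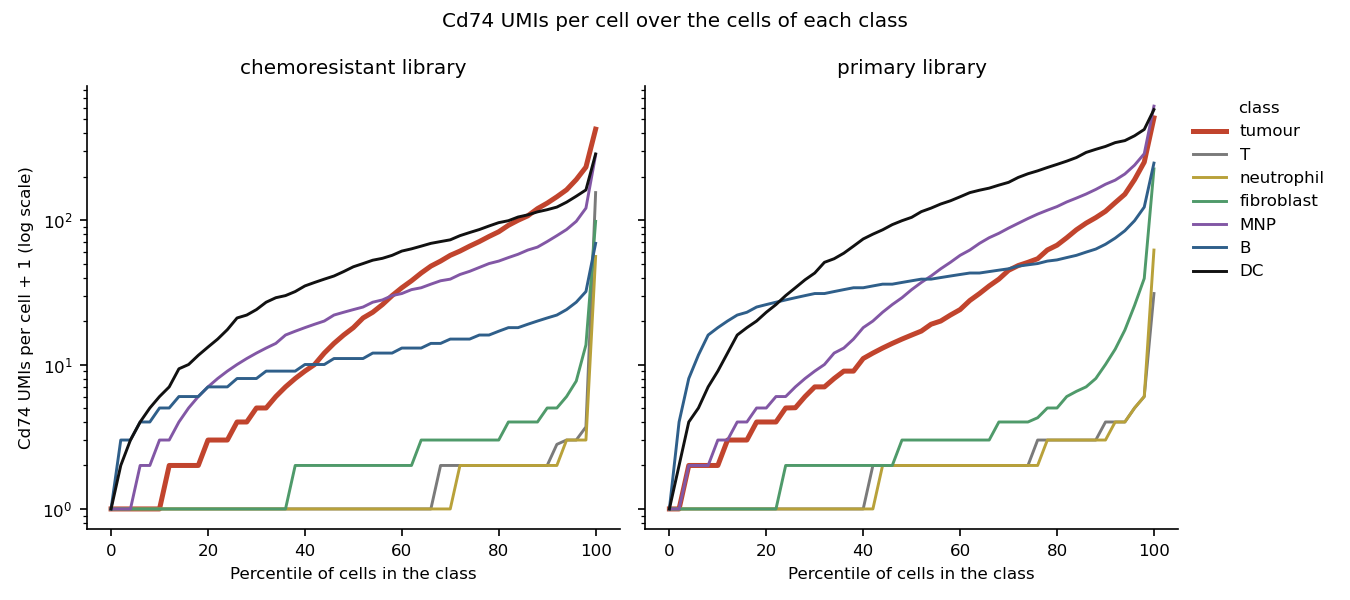
Cd74 UMIs per cell plus 1 (log axis) against the percentile of cells in each of 7 classes, chemoresistant library left and primary library right. The tumour curve climbs over the whole range to 425 and 509 UMIs, while T cells and neutrophils stay near 0 until their last cells.

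When tumour-class cells were binned by their Cd74 UMIs, H2-Aa and Ciita were higher in the bins from 10 Cd74 UMIs on, and the tracer Lyz2 stayed nearly level. In chemoresistant cells, H2-Aa was at 87.8, 74.8, 112, 393 and 1464 CPM in cells with 0, 1 to 2, 3 to 9, 10 to 29 and 30 or more Cd74 UMIs. In primary cells the same bins had 63.1, 74.3, 72.7, 139 and 658 CPM. Ciita went along, with 3.01, 2.95, 2.61, 6.84 and 21.6 CPM in chemoresistant cells. In the primary library it had 3.68, 4.67, 6.16 and 14.4 CPM in the upper 4 bins, while the lowest bin of 31 cells held 4 counts (14.8 CPM). Lyz2 stayed between 125 and 150.3 CPM (chemoresistant) and between 131 and 179 CPM (primary). The bins also differ in depth, since cells of more UMIs hold more Cd74.

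**Figure D3:**
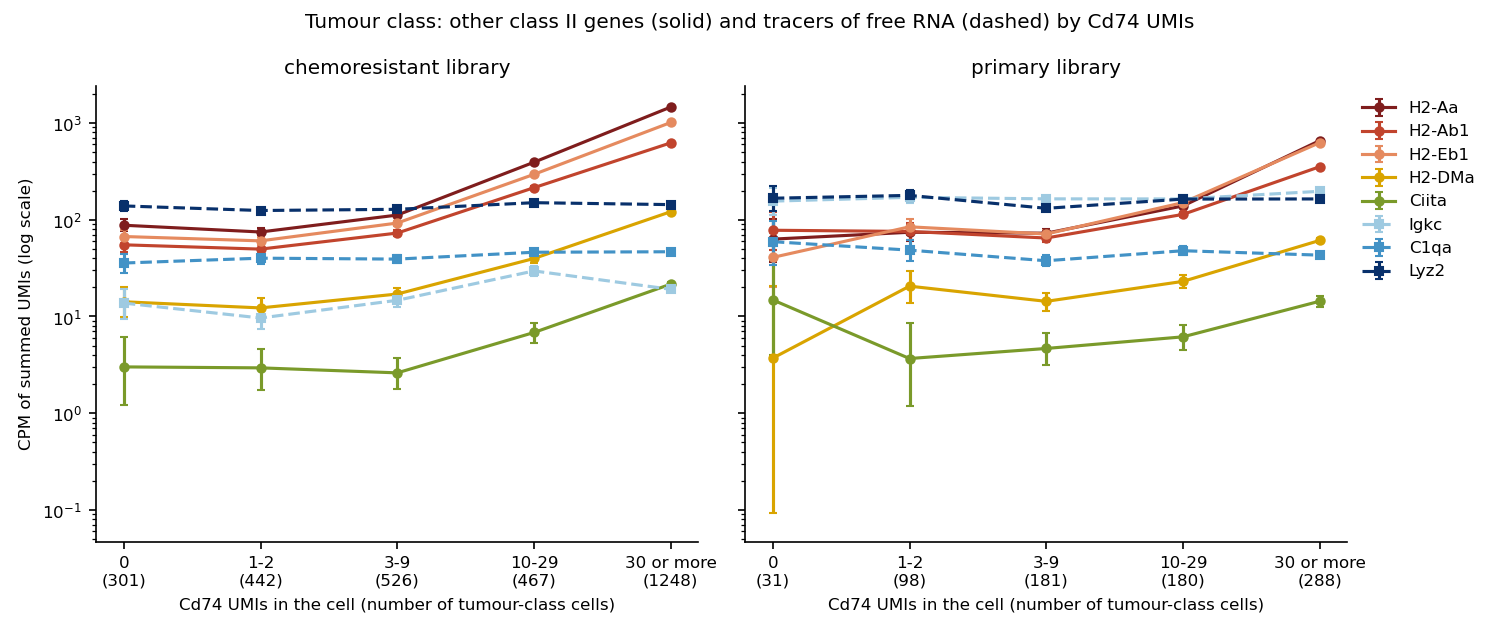
CPM (log axis) of 5 members (solid, circles) and 3 tracer genes (dashed, squares) in tumour-class cells binned by Cd74 UMIs, with 95% counting intervals and the number of cells under each bin, chemoresistant left and primary right. H2-Aa reaches 1464 and 658 CPM in the highest bin, and Lyz2 stays between 125 and 179 CPM in all bins.

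Among tumour-class cells of at least 10000 UMIs, the tercile with the highest Cd74 CPM was set against the lowest tercile. H2-Aa was at 2069 against 82.2 CPM in the chemoresistant and 921 against 54.2 CPM in the primary library. H2-DMa was at 169 against 14.1 CPM and 79.2 against 13.7 CPM, and Ciita at 27.1 against 2.26 CPM and 18.3 against 3.50 CPM. The 5 members other than Cd74 with at least 10 CPM in both terciles (the classical chains, H2-DMa and H2-DMb1) were at least 1.5-fold higher in the highest tercile of both libraries, with a median log2 ratio of 3.96 and 2.97. Over the 7897 and 8464 other genes at that limit, 9.84% and 3.78% were that much higher, with a median of -0.02 and -0.07. Ciita, and H2-DMb2 in the chemoresistant library, reached 10 CPM in the highest tercile alone, so they could pass only by being higher and are not counted. Of the tracers at that limit, 2 of 7 (chemoresistant) and 1 of 8 (primary) were at least 1.5-fold higher and 0 lower, with medians of 0.20 and 0.37. Those higher were neutrophil genes. S100a8 was at 24.9 against 10.3 CPM in the chemoresistant library, and S100a9 at 27.9 against 11.6 CPM and, in the primary library, 59.1 against 32.0 CPM.

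Markers of other classes differed over this split too, and their part in it was not tested. The summed mesothelial markers stood at 1806 against 459 CPM in the chemoresistant library and at 1549.7 against 801 CPM in the primary library. The macrophage list stood at 49.9 against 47.2 CPM and 50.5 against 45.7 CPM, and the B-cell list at 22.6 against 16 CPM and 71.6 against 23.7 CPM. The migratory dendritic list stood at 492 against 479 CPM and 347 against 209 CPM, the cDC1 list at 228 against 143 CPM and 187 against 201 CPM. The T-cell list stood at 10.3 against 5.49 CPM and 27.7 against 15.6 CPM, the neutrophil list at 65.4 against 31.2 CPM and 72.3 against 56.4 CPM, and the monocyte list at 68.2 against 241 CPM and 72.2 against 202 CPM. None of the macrophage, B-cell, T-cell, neutrophil or monocyte markers was at 0 in the highest tercile of either library. By the number of mesothelial markers detected (6 to 9, 3 to 5 and 0 to 2 of 9), Cd74 was at 2426, 1044 and 299.5 CPM in chemoresistant cells and at 1241, 816 and 773 CPM in primary cells. Lyz2 was at 140.1, 148 and 112 CPM and at 157, 155 and 148 CPM over the same cells.

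The split also held inside clusters. In cluster 6 of the chemoresistant library, which held 59.2% of the Cd74 UMIs of its tumour class, the highest over the lowest tercile gave 4.39 for Cd74, 4.30 for H2-Aa, 2.54 for Ciita and 1.01 for Lyz2. In cluster 10 of the primary library, which held 56.9%, the folds were 19.6, 14.2, 4.60 and 1.33.

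Most of the tested genes that interferon gamma is known to induce were higher in tumour-class cells with much Cd74. Of the listed targets with at least 10 CPM in both terciles, 7 of 9 (chemoresistant) and 6 of 10 (primary) were at least 1.5-fold higher, with medians of 1.02 and 0.71 on the log2 scale, beside the same 9.84% and 3.78% of other genes. Of the listed signalling genes at that limit, 1 of 6 and 0 of 7 were, with medians of 0.16 and -0.01. The transcription factor Irf1, which interferon gamma also induces, was at 39.6 against 52.9 CPM and 489.9 against 494 CPM, and the feedback inhibitor Socs1 at 4.97 against 13.7 CPM and 38.3 against 28.5 CPM. Gbp2, a guanylate-binding protein of cell defence, was at 91.8 against 21.5 CPM and 81.6 against 17.4 CPM. Psmb8, a subunit of the immunoproteasome, was at 232 against 86.2 CPM and 122 against 74.4 CPM. The chemokine Cxcl10 was at 4.54 against 42.9 CPM in the chemoresistant library and at 155 against 153 CPM in the primary library.

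The proportions between the classical chains differed between the tumour class and most other classes. The proportion of H2-DMb2 to H2-DMb1 was near that of mononuclear phagocytes, and that of H2-Oa to Cd74 was near it in the chemoresistant library only. The tumour class had 62.9 (62.0 to 63.8; chemoresistant) and 60.2 (58.4 to 62.0; primary) H2-Ab1 UMIs per 100 H2-Eb1 UMIs. The ratio was 111 and 94.3 in dendritic cells, 108 and 98.4 in B cells, 126 and 105 in mononuclear phagocytes, 124 and 114 in T cells, and 126 and 105 in neutrophils. H2-Aa per 100 H2-Ab1 was 228 (225 to 231) and 172 (167 to 177) in the tumour class, while it was 112 and 116 in dendritic cells and 134 and 116 in B cells. H2-DMb2 per 100 H2-DMb1 was 9.96 and 7.35 in the tumour class, near the 9.47 and 8.79 of mononuclear phagocytes and far below the 309.7 and 275 of B cells. Fibroblasts had 8.57 (on 9 H2-DMb2 counts) and 36.9, and primary enterocyte-like cells 11.9. H2-Oa per 1000 Cd74 was 0.954 (0.797 to 1.13) and 2.21 (1.73 to 2.79) in the tumour class. Mononuclear phagocytes had 1.23 (1.04 to 1.45) and 0.746 (0.626 to 0.882), so the primary intervals lay apart. In the primary library the ratio was 1.58 in plasma-like and 1.496 in enterocyte-like cells. It was 33.7 and 24.0 in B cells and 23.6 and 12.8 in dendritic cells.

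Dendritic cells with migratory markers were the exception. They had 52.7 and 60.7 H2-Ab1 UMIs per 100 H2-Eb1 UMIs and 237 and 182 H2-Aa UMIs per 100 H2-Ab1 UMIs, close to the tumour class. They differed from it in H2-DMb2 per 100 H2-DMb1 (150 and 230.2) and in H2-Oa per 1000 Cd74 (17.5 and 11.4). cDC1-like cells, by contrast, had 125 and 104 H2-Ab1 UMIs per 100 H2-Eb1 UMIs.

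**Figure D4:**
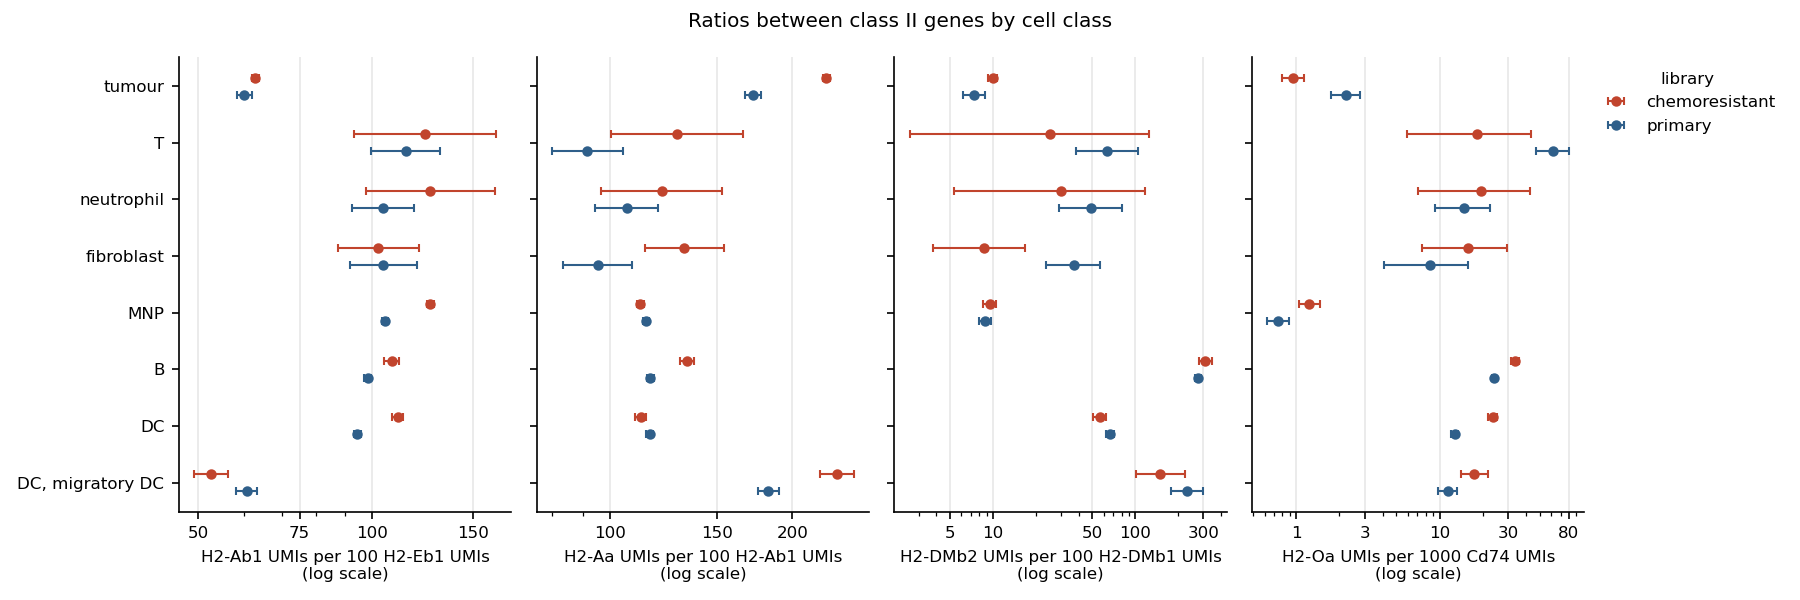
Ratios between members (log axes) by class, chemoresistant in red above primary in blue, with exact 95% counting intervals. The tumour class and the migratory dendritic cells lie apart from the other classes in the 2 panels on the left (62.9 and 52.7 in the first, chemoresistant), and in the 2 panels on the right the tumour class lies far below B and DC.

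Between the libraries, class II genes were higher in chemoresistant than in primary tumour-class cells taken as a whole. Of the 8 members with at least 10 CPM in 1 library, 7 were at least 1.5-fold higher and 0 lower, where 6.34% of the 9182 genes tested were that much higher and 14.6% lower. H2-DMb2, 1 of the 7, reached 10 CPM only in the chemoresistant library and so could pass only by being higher. Of the 6 members with at least 10 CPM in both libraries all 6 were higher, beside 4.79% of the 8331 genes at that limit. Their median was 0.91 on the log2 scale, and that of those genes was -0.13. H2-Aa was 2.49-fold higher (2.44 to 2.54), H2-DMb2 2.54-fold, H2-DMa 2.03-fold, H2-Ab1 and H2-DMb1 1.88-fold, H2-Eb1 1.80-fold and Cd74 1.67-fold (1.65 to 1.69). Ciita, at 14.5 against 9.92 CPM, gave 1.46-fold (1.28 to 1.66), short of the limit, and H2-Oa was too low to be tested.

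The direction depended on which tumour cells were compared. Cluster 6, led by Stox2 and Kcnd2, held 1237 chemoresistant cells (41.5% of the class) and 167 primary cells (21.5%). Cluster 10, led by Cxcl1, Atf3 and Fosb, held 294 (9.85%) and 485 cells (62.3%). Within cluster 6, Cd74 was at 2441 against 1291 CPM (1.89-fold), H2-Aa 2.61-fold higher and Ciita 1.98-fold higher (1.59 to 2.50). Within cluster 10, Cd74 was at 629 against 919 CPM (0.684), H2-Aa gave 0.920 and Ciita 0.449 (0.278 to 0.695). With the mean log2 ratio over these 2 clusters, the only ones with at least 50 tumour-class cells in both libraries, 3 of 7 members tested were at least 1.5-fold higher (4.09% of all genes tested), against 7 of 8 over the whole class. Cluster 11, led by Basp1 and Gsto1, held 794 chemoresistant cells at 1733 CPM of Cd74 and 37 primary cells at 1949.5 CPM. Cluster 17, led by Ero1a and Ndrg1, held 262 chemoresistant cells at 306 CPM. The different mix of clusters and the difference within them cannot be told apart in the sum over the class.

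Summed over whole classes of professional antigen-presenting cells, Ciita was the 1 member past 1.5-fold. In dendritic cells 0 of 9 members were at least 1.5-fold higher and 1 lower (4.78% and 23.5% of genes tested), in B cells 0 and 1 of 9 (7.91% and 12.3%), and in mononuclear phagocytes 0 and 1 of 8 (3.0% and 16.9%). As a share, 1 lower member was no more than that of all genes in each of these classes. The lower one was Ciita each time, with 280 against 551 CPM in dendritic cells (0.508-fold), 147 against 296 CPM in B cells (0.495) and 44.0 against 72.9 CPM in mononuclear phagocytes (0.603). Cd74 was at 0.740, 0.854 and 0.859 of its primary level in these classes.

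Within these classes the clusters differed. Among mononuclear phagocytes, Cd74 was at 2390 against 7583 CPM (0.315) in cluster 12, led by Cxcl2 and Il1b, and at 3666 against 1409 CPM (2.60) in cluster 5, led by Saa3 and Alox15. Ciita gave 0.168 in cluster 12 and 1.82 in cluster 5. Among dendritic cells, those with migratory markers had 4708 against 8860 CPM of Cd74, 1210 against 2348 CPM of H2-Ab1 and 44.97 against 124 CPM of Ciita, while Cd74 in cluster 18, led by Xcr1 and Clec9a, gave 1.03. In the 3 B-cell clusters Cd74 gave 0.757 to 0.804 and Ciita 0.345 to 0.569. As in the tumour class, the mix of clusters and the difference within them cannot be told apart in the sums.

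Neutrophils had 1 of 6 higher and 0 lower (15% and 19.4%), and fibroblasts 0 and 3 of 6 (14.0% and 35.4%). The fibroblasts of the libraries lay mostly in different clusters, so their comparison is not one of like cells. T cells had 7 of 8 members higher and 0 lower (16.6% and 19.7%), of which H2-DMb1 and Ciita reached 10 CPM only in the chemoresistant library. Without the highest Cd74 cell of each library this became 2 of 7 higher and 1 lower (16.4% and 19.7%), and the number of members higher over the 5 leukocyte classes became 3, against 8 with these cells. With doublets kept that number was 15, given here without the share of all genes, so it is not read as a result about the members.

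**Figure D5:**
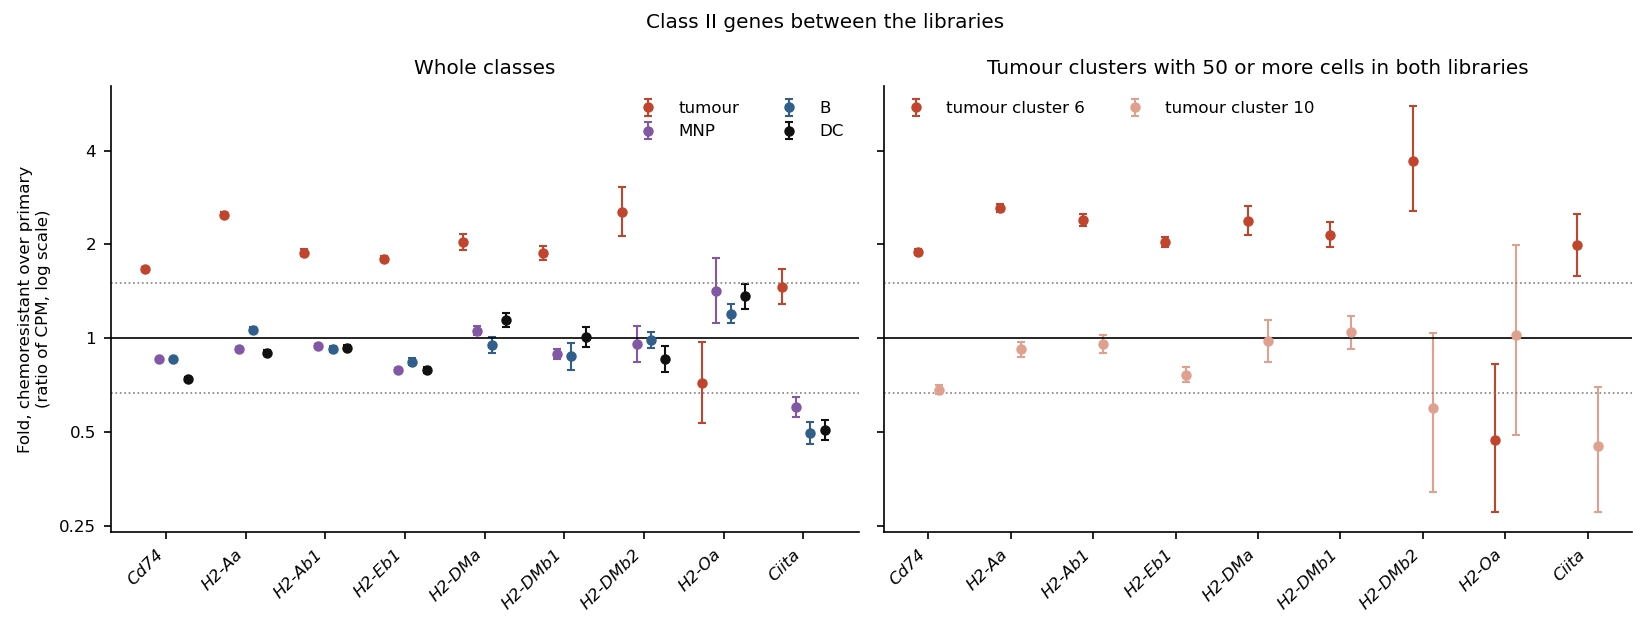
Ratio of CPM, chemoresistant over primary (log axis), for each member in whole classes (left) and in the 2 shared tumour clusters (right), with 95% counting intervals and dotted lines at 1.5-fold. Tumour values lie above 1 except H2-Oa on the left, and cluster 10 gives 0.684 for Cd74 where cluster 6 gives 1.89.

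Other genes of the class II pathway and of the interferon gamma lists were also compared between the libraries in the tumour class. Over all 9182 genes tested there, 6.34% were at least 1.5-fold higher and 14.6% lower. Of 6 tested genes for proteins that bind class II promoters, 0 were higher and 1 lower, namely Rfxank of the RFX complex, at 6.91 against 11.1 CPM. Of 4 tested processing genes 0 were higher and 0 lower, among them Ctss, a protease that trims the invariant chain, at 26.7 against 34.3 CPM. Of 7 tested interferon gamma signalling genes 0 were higher and 3 lower, the transcription factor Irf1 at 44.1 against 509 CPM, the feedback inhibitor Socs1 at 8.13 against 30.9 CPM and the receptor chain Ifngr1 at 23.5 against 43.0 CPM. Of 12 tested targets 2 were higher, Iigp1 at 10.04 against 2.86 CPM and Psmb8 at 162 against 96.9 CPM, and 1 lower, Cxcl10 at 20.5 against 138 CPM. The other class II chains, the turnover and costimulation genes and the listed T-cell partners of class II were all under 10 CPM in the tumour class. H2-Ob, the partner of H2-Oa, had 2.06 and 3.87 CPM there.

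Over the 18 class profiles (class by library, at least 50 cells each), which share libraries and depth, the members ran with Cd74 at Pearson correlations from 0.670 (H2-Oa) to 0.980 (H2-Ab1), on log2 of CPM plus 10. Among 9826 genes compared, the nonmembers most like Cd74 were Irf8 (0.871), Gm20513 (0.851), Ryr1 (0.845), Gm15987 (0.841) and Rnase6 (0.830). Those most like Ciita were Gm20513 (0.927), Irf8 (0.920), BC035044 (0.913), Kynu (0.909) and Kmo (0.899). Irf8 is a transcription factor of dendritic and B cells, and Kynu and Kmo are enzymes of tryptophan breakdown. Gm20513 overlaps H2-Eb1 on the other strand, so the counts of this pair may not be separate, and Kmo is also among the markers that set the dendritic class.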

How the data were processed

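UMI counts per gene and barcode were made and deposited by the authors with Cell Ranger 8.0.1 on mm10, per the submitters' processing notes. No annotation version is stated there. The tables held 16390 chemoresistant barcodes (158118781 UMIs) and 14390 primary barcodes (141334623 UMIs). Filters required 500 UMIs or more, 250 genes or more and no more than 20% mitochondrial UMIs. Scrublet, within scanpy 1.11.5, marked 0 and 297 doublets by its automatic limit, so the top-scoring share, 0.8% per 1000 barcodes, was removed instead, 1778 (11.9%) and 1316 (10.3%). Clusters came from the Leiden algorithm (leidenalg 0.10.2, resolution 1.5) with the members left out of the 2000 variable genes. A cell took the class whose marker list had the highest mean ln(1 + counts per 10000), with at least 3 markers detected and 1.5 times the score of the next class. This scoring rule was set after the marker tables had been seen, and 381 (chemoresistant) and 141 (primary) tumour-class cells lay within 2 times the next score. Counts were summed by class and library, and a gene was called at 1.5-fold with at least 10 CPM in 1 library. A limit of 10 CPM in both groups was added after seeing the data. The code was checked on simulated data. The members, marker lists and pathway lists were chosen with earlier results of these data known. Named genes were all members, listed genes, and the 5 genes most like Cd74 and Ciita. Cells are not replicates, and with 1 library a group no test was made. One listed signalling gene is not reported here.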

Additional observations from a re-analysis of the deposited data

Results flagged for a closer look

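For Cd74, H2-Ab1, H2-Eb1 and Ciita the direction between the libraries differed between classes. These members were higher in chemoresistant than in primary tumour-class cells and lower in chemoresistant B cells, dendritic cells and mononuclear phagocytes. The tumour ratios were 1.67 for Cd74, 1.88 for H2-Ab1, 1.80 for H2-Eb1 and 1.46 for Ciita. The 1 library in each group allows no test, so this difference was not tested. Within tumour cluster 10 the ratio of each of these 4 genes was also below 1, from 0.449 for Ciita to 0.956 for H2-Ab1. H2-DMb2 had the same directions over whole classes, at 11.5 against 4.52 CPM in the tumour class. Its other gaps were smaller, 321 against 326 CPM (B), 205 against 238 CPM (dendritic) and 15.9 against 16.6 CPM (mononuclear phagocyte). The median log2 ratio of all tested genes was also below 0, at -0.09 (B), -0.30 (dendritic) and -0.28 (mononuclear phagocyte). The tested members had medians of -0.11, -0.15 and -0.14.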

How the results depend on the processing

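One direction was reversed among the alternatives run, in the chemoresistant cells without leukocyte markers given below, and the cause was not tested. Tumour over T cells in Cd74 UMIs per cell (35.7 chemoresistant, 36.9 primary) was 21.9 and 18.9 with doublets kept. With them 15 leukocyte calls were higher, against 8, and for the 15 no share of all genes is given. With whole Leiden clusters as classes the primary ratio was 25.3 and the chemoresistant share of thinned cells with Cd74 was 53.3%. Tumour cells with no UMI of any leukocyte marker numbered 63 (median 1518 UMIs) in the chemoresistant library and gave a share of 23.3%, a co-detection difference of 38.8 points and a ratio of 0.701, below 1, which became 1.59 once the highest T cell was left out as well, a step added after seeing the data; the 17 primary ones gave no value. With no UMI of 6 leukocyte genes (Ptprc, Csf1r, Cd79a, Flt3, Cd3e and Csf3r), an alternative chosen after seeing the data, 2026 chemoresistant and 297 primary cells gave ratios of 29.2 and 24.7. Thinning to 2000 UMIs gave shares of 69.5% and 64.0%. In CPM the ratios were 2.81 and 4.93 over T cells and, added after seeing the data, 3.76 and 2.44 over neutrophils; per cell, neutrophils gave 93.9 in the chemoresistant library. The remaining alternatives were also chosen after seeing the data. Without the tumour clusters of a median under 5000 UMIs (418 cells), the shares were 60.6% and 52.4% and the ratios 40.5 and 39.4. Without the highest T cell the chemoresistant ratio was 81.2 and 3 leukocyte calls were higher. The mean over shared clusters left 3 members higher in the tumour class. The other settings moved none of these results beyond their own limits. No paired analysis was possible because each group is 1 library. Leaving out a replicate was not possible for the same reason. Depth limits Ciita, H2-DMb2 and H2-Oa, whose counts in T cells and neutrophils are few. Free RNA cannot be measured directly, because the deposited counts held no barcode under 500 UMIs.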
